A study of Bos taurus and Mus musculus with 16 samples.

Results

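Genes of the Wnt pathway were examined in mouse morulae and bovine blastocysts that had been edited in the gene of the DNA-binding factor TEAD4 as zygotes. Members were chosen by gene symbol: every row of the deposited mouse or bovine table whose symbol belongs to the Wnt ligands, the Frizzled and LRP5/6 receptors, the acyltransferase Porcn, the Dickkopf family, the Dishevelled, Axin, Apc, Gsk3 and casein kinase 1 transducers, the TCF/LEF factors with Bcl9 and Pygopus, or the Groucho (Tle) corepressors. This gave 55 genes of 20791 distinct symbols, 49 of 16655 genes in mouse and 44 of 14852 in cattle, with 38 members in both tables. Of these, 32 in mouse and 28 in cattle reached a mean of 10 normalized reads in their table and were tested.

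The control groups received mRNA of the cytosine base editor BE3 (a Cas9 nickase joined to a cytidine deaminase), and the edited groups received the same mRNA with a mix of single guide RNAs against Tead4 in mouse or TEAD4 in cattle. Mouse embryos were collected as morulae 3.25 days after fertilization (2 samples per group); bovine embryos were collected as blastocysts at day 7.0 (6 per group). The controls carried no guide RNA, so loss of TEAD4 and other effects of the guides cannot be told apart. The sources used here do not give strain, breed, embryos per sample or injection days, and p-values thus reflect a spread between samples that may be technical. Tead4 stood at 458 and 519 normalized reads (reads divided by a size factor per sample) in the mouse controls and at 57.2 and 76.5 in the edited morulae, a log2 fold change of -2.86 ± 0.25 (SE; limma adjusted p = 5.37e-09). In cattle TEAD4 had a median of 92.9 in control (61.2 to 125) and of 37.5 in edited blastocysts (22.6 to 65.6), with overlapping groups and a log2 change of -1.25 ± 0.25 (SE, n = 6 per group) that did not pass (limma, adjusted p = 0.235).

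Wnt proteins are secreted, lipid-modified ligands that bind Frizzled receptors together with the co-receptors LRP5 and LRP6. Without a ligand, a complex of Axin, APC, glycogen synthase kinase 3 and casein kinase 1 marks beta-catenin for destruction; with a ligand, Dishevelled disables that complex, beta-catenin reaches the nucleus, and TCF/LEF factors exchange Groucho corepressors for activators. Early embryos and embryonic stem cells express many of these parts, and in stem cells inhibition of GSK3 is used to maintain pluripotency.

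Libraries held 3642907 to 6109425 reads assigned to genes in mouse and 817329 to 2501592 in cattle. All 10 listed markers of embryo identity, such as Pou5f1, were in both tables. In mouse 5 of them fell and 1 rose (limma adjusted p under 0.05), beside 8.38% lower and 6.92% higher over all tested genes. Oocyte markers (5 of 8 in the mouse table) summed to 32.4 and 40.5 normalized reads in control and 61.7 and 71.5 in edited morulae, and cumulus and granulosa markers to at most 12.0 in mouse and 194 in cattle; their part in the results below was not tested. Among bovine libraries, control library 6 stood apart. The 18S ribosomal RNA gene RN18S1 took 36.6% of its reads, against 9.27% to 25.2% in the others, and it was the highest of the 12 libraries in 11 of the 28 tested members, or 39.3%, compared with 14.9% of all 8884 tested genes. The median of the bovine members and the signs of the nuclear factors are therefore also given without it. Log2 fold changes (edited minus control) of AXIN2 (0.08), GSK3A (0.22), LRP6 (0.02) and TLE3 (0.04) also turned from negative to positive without it. No bovine member was called with or without it.

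In mouse morulae, editing was accompanied by lower RNA for 5 of the 32 tested members and higher RNA for 0 (limma, Benjamini-Hochberg adjusted p under 0.05 over all 11386 tested genes). The members that fell were the ligand genes Wnt3a and Wnt7b, the Dickkopf-related gene Dkkl1, the kinase gene Gsk3b and the corepressor gene Tle4. Over all tested genes 15.3% were called, 8.38% lower and 6.92% higher, so the 15.6% of members called is close to the background. The median log2 fold change of the tested members was 0.22, against -0.0049 over all genes, and 20 of 32 were positive. This median rests on single libraries: it was -0.03 with 16 of 32 positive without control library 1, and 0.45 with 21 of 31 positive without control library 2. Scaling the samples to equal totals, counted without the most abundant feature (LOC101056014, 2.42% to 7.20% of reads), moved the median of all genes to 0.16 and the share of calls that were higher from 45.2% to 67.6%, and among members it gave 4 higher and 4 lower. At an unadjusted p under 0.05 there were 10 members, or 31.3%, beside 28.6% of all genes. In bulk samples fewer cells of a type and less RNA per cell cannot be told apart, for any of these genes.

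Both ligand genes that fell had larger log2 changes than the other called members. Wnt7b (chromosome 15, 85535437 to 85582473, minus strand, GRCm38), a ligand of placental and epithelial tissues, had 69.3 and 82.2 normalized reads in the controls, 7.63 and 36.9 after editing. The groups did not overlap, but the edited libraries lay far from each other. Wnt7b went from 75.7 ± 9.15 to 22.2 ± 20.7 (mean ± SD, n = 2), a log2 fold change of -2.08 ± 0.50 (SE) with a limma adjusted p of 0.00561. Leaving out edited library 1 gave -1.01, leaving out edited library 2 gave -3.15, and the call did not survive the loss of edited library 1 or of either control (adjusted p up to 0.0877).

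Wnt3a (chromosome 11, 59248033 to 59290752, minus strand), a canonical ligand that acts through beta-catenin, had 14.5 and 34.2 normalized reads in the controls, from 13 and 27 reads, and 1.91 and 4.25 after editing, from 2 and 6 reads. Both edited libraries were below both controls, at counts where sampling alone moves a value widely. Its log2 fold change was -2.58 ± 0.78 (SE, n = 2 per group; limma adjusted p = 0.0244), with a 95% interval from -4.18 to -0.98. Without control library 1 it was no longer called (adjusted p = 0.0802), and without control library 2 it fell below the filter on low values. These fold changes are on the log2(value + 1) scale, which understates the change of low genes. Wnt6 was spread too widely to separate the groups, with 15.6 and 22.8 normalized reads in the controls, 8.58 and 17.01 after editing. Wnt10b, the other tested ligand, had 8.94 and 12.6 in the controls, 21.9 and 12.8 after editing, values that did not overlap but nearly touched. Porcn, which adds the lipid that Wnt proteins need for secretion, had 105 and 88.5 in the controls, 218 and 90.7 after editing, so that 1 edited library was high and the other lay within the controls.

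**Figure D1:**
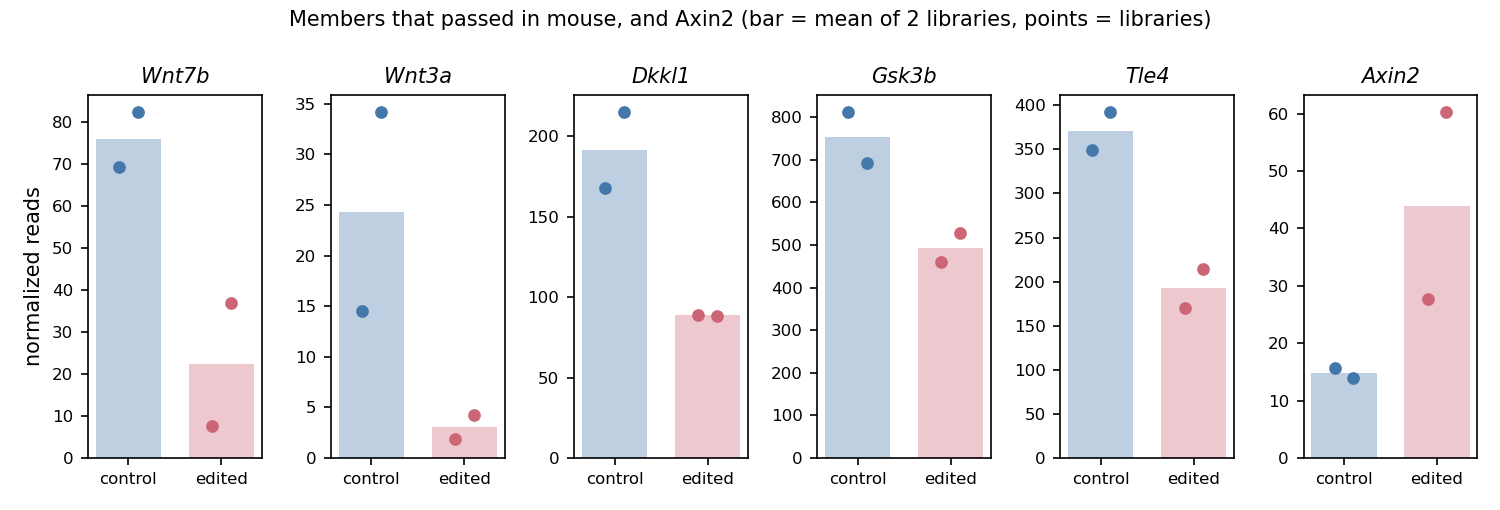
Normalized reads (linear axes from 0, one scale per gene) of the 5 members that passed in mouse and of Axin2, which did not, in control and edited morulae. Bars are means of 2 libraries and points are libraries; the edited points of Wnt7b (7.63 and 36.9) and Axin2 (27.7 and 60.2) lie far apart, while those of Dkkl1 (88.7 and 88.6) nearly coincide.

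None of the 4 tested receptor genes passed in mouse (limma; 0 at an unadjusted p under 0.05, and 0 in edgeR and DESeq2). Fzd3, a Frizzled receptor also known for planar polarity, had 72.6 and 81.0 normalized reads in the controls, 53.4 and 54.6 after editing, a separation without a call (adjusted p = 0.335). Fzd5, a receptor of canonical signalling, had 40.2 and 37.9 in the controls, 50.5 and 61.0 after editing (adjusted p = 0.408). The co-receptor Lrp6 overlapped between the groups, with 60.3 and 65.8 in the controls and 70.6 and 63.8 after editing; the 95% interval of its log2 fold change ran from -0.59 to 0.77. Scaled by exon length, the control levels of the tested receptors were 5.998 (Fzd3), 5.65 (Fzd5), 4.61 (Lrp6) and 1.69 (Lrp5) normalized reads per kilobase. Fzd3, Fzd5 and Lrp6 thus lay close together at a low level.

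Dkkl1 (chromosome 7, 45207519 to 45212147, minus strand) encodes a secreted protein related to the Dickkopf family, whose classical members block LRP5 and LRP6. It had 168 and 215 normalized reads in the controls, 88.7 and 88.6 after editing. The edited libraries were nearly equal and both below the controls, and the mean fell to 46.3% of control. The log2 fold change was -1.09 ± 0.27 (SE, n = 2 per group; limma adjusted p = 0.00594). Dkkl1 was the 1 member called without control library 1 (adjusted p = 0.0399), but missed the threshold after leaving out control library 2 (adjusted p = 0.163). At 121 normalized reads per kilobase in control, Dkkl1 was second only to the casein kinase gene Csnk1e (135) among members. Dkk1, a secreted inhibitor of LRP5 and LRP6, had 13.4 and 12.6 in the controls, 4.77 and 15.6 after editing, with overlapping groups.

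All 14 cytoplasmic transducer genes were tested in mouse, and 1 fell. Gsk3b (chromosome 16, 38089001 to 38246084, plus strand), a kinase that phosphorylates beta-catenin for destruction, had 811 and 693 normalized reads in the controls, 460 and 528 after editing. All control values lay above all edited ones, and the mean fell to 65.6% of control, a log2 change of -0.61 ± 0.19 (SE, n = 2 per group; limma adjusted p = 0.0296). This call was lost without control library 1, control library 2 or edited library 1 (adjusted p up to 0.347). Scaling to equal totals, counted without the most abundant feature, gave -0.43 and no call (adjusted p = 0.101).

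Its paralogue Gsk3a lay on the other side, with 34.6 and 41.7 normalized reads in the controls, 64.8 and 87.9 after editing. The groups did not overlap, but the log2 change of 0.97 ± 0.36 (SE, n = 2 per group) missed the threshold (limma adjusted p = 0.0664). Per kilobase of exon, Gsk3b in control (76.5 normalized reads) was far above Gsk3a (13.2).

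Axin2, a scaffold of the destruction complex and a widely used target gene of beta-catenin signalling, had 15.6 and 13.9 normalized reads in the controls, 27.7 and 60.2 after editing. The edited libraries were both higher and differed from each other. Its log2 change of 1.41 ± 0.50 (SE, n = 2 per group) missed the threshold (limma adjusted p = 0.0558), and its 95% interval ran from 0.38 to 2.44. Axin2 passed with edgeR (0.0409), with robust limma (0.0498), with equal totals (0.0333) and without edited library 1 (0.0146), and was 0.86 without edited library 2. Dvl3, a Dishevelled gene, had 65.9 and 102 in the controls, 135 and 151 after editing (log2 fold change 0.79 ± 0.29, n = 2 per group, limma adjusted p = 0.0649). With equal totals, Axin2, Gsk3a, Dvl3 and Csnk1e were called higher.

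The casein kinase 1 genes varied less. Csnk1e had 848 and 927 normalized reads in the controls, 1257 and 1091 after editing (log2 fold change 0.40 ± 0.17, n = 2 per group, limma adjusted p = 0.126). Csnk1g1 had 189 and 201 in the controls, 301 and 247 after editing (log2 fold change 0.48 ± 0.23, n = 2 per group, limma adjusted p = 0.161). Csnk1a1, the casein kinase that primes beta-catenin, had 696 and 753 in the controls, 897 and 712 after editing, so that the groups overlapped. The scaffold genes Axin1 (90.3 ± 17.1 in control, 109 ± 10.1 in edited samples) and Apc (89.9 ± 21.3 and 99.5 ± 6.33; mean ± SD, n = 2) differed by about their own spread.

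Of the nuclear factors, 4 were tested and none passed in mouse (limma; 0 at an unadjusted p under 0.05, 0 in edgeR and 0 in DESeq2). Tcf7, a TCF factor, had 20.1 and 20.2 normalized reads in the controls, 33.4 and 37.6 after editing. Both edited libraries were higher, with an adjusted p of 0.273 and a 95% interval of the log2 fold change from -0.17 to 1.73. Tcf7l2 spread from 29.1 to 91.1 within the controls and took up the edited values of 52.4 and 85.1. Pygo2, which links Bcl9 and beta-catenin to chromatin, had 182 and 175 in the controls, 129 and 150 after editing (adjusted p = 0.369).

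Among the Groucho corepressors, Tle4 (chromosome 19, 14448150 to 14598051, minus strand) fell. Tle4 had 350 and 392 normalized reads in the controls, 170 and 215 after editing, so that the groups were well apart. Its mean fell from 371 ± 29.9 to 192 ± 31.9 (SD, n = 2), or to 51.8% of control. The log2 fold change was -0.95 ± 0.22 (SE, n = 2 per group; limma adjusted p = 0.00440), and Tle4 was no longer called after leaving out control library 1 (0.0565) or 2 (0.115). Tle3, another corepressor of the family, had 78.2 and 104 in the controls, 156 and 101 after editing, with overlapping groups.

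**Figure D2:**
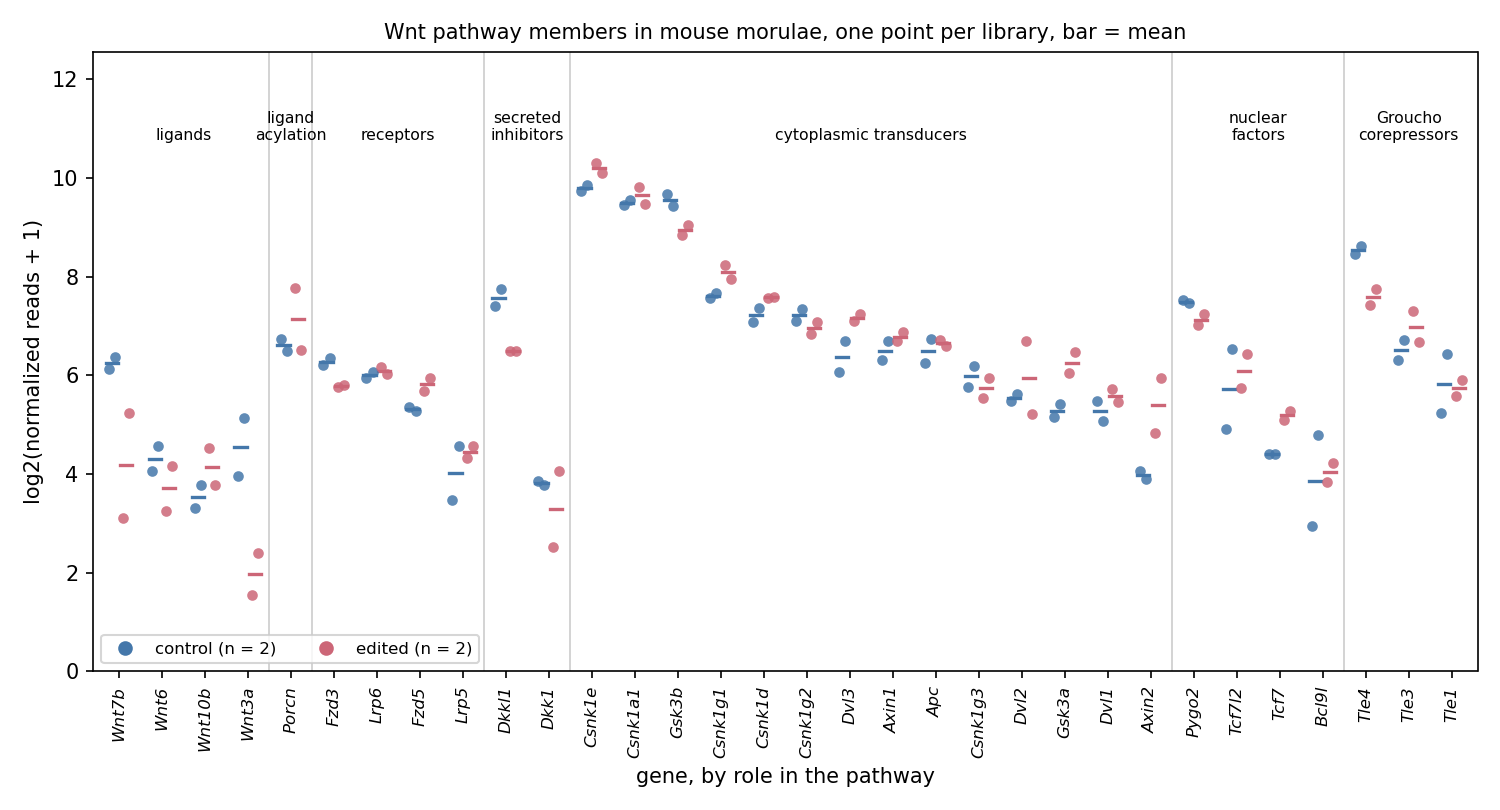
Each tested mouse member as log2(normalized reads + 1) per library, ordered by role and then by mean, with control in blue and edited in red and a bar at each group's mean. Of 32 members, 8 had both edited libraries below both controls and 9 had both above.

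Over all roles, 8 of the 32 tested members (25.0%) had both edited libraries below both controls, beside 29.2% of all tested genes, and 9 (28.1%) had both above, beside 28.6%. These shares are near the background. Among the transducers, 11 of 14 log2 fold changes were above 0, beside 5656 of all 11386 tested genes, with a median of 0.33. The tested ligands had a median of -1.34, but only 4 of the 12 ligand genes reached the filter. Wnt3a did so only through its controls (mean 24.3, against 3.08 after editing), so these medians only describe the tested genes.

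Each of the 5 calls was lost when 1 or more of the 4 libraries was left out. Such a fit has 1 library in a group, which is assumed to vary like the other group, and a lost call need not mean a smaller change. Tle4 was at -1.03 and -0.87 without control library 1 or 2, against -0.95 with all libraries. Wnt7b, by contrast, was at -1.01 without edited library 1, against -2.08 with all libraries. Without control library 2 no member was called (limma; 8 at an unadjusted p under 0.05). Without edited library 2, all 5 were called lower and Porcn, Dvl2 and Csnk1e were called higher. A further count test on the reads recovered from the table called the same 5 members lower with edgeR and with DESeq2, and edgeR also called Axin2 higher. The authors' deposited table gives an adjusted p under 0.05 for 5 mouse members, Tle4, Dkkl1, Gsk3b, Wnt3a and Wnt7b.

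**Figure D3:**
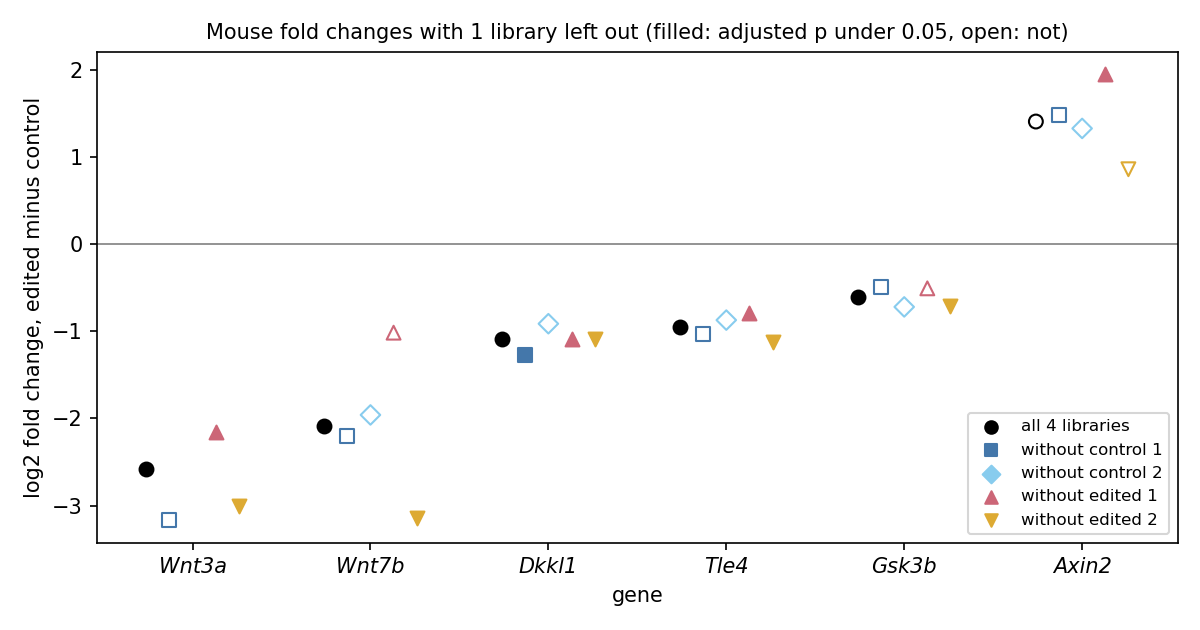
Log2 fold change (edited minus control) of the 5 called mouse members and Axin2 with all libraries and with each library left out in turn; filled points passed an adjusted p of 0.05 and open points did not. Wnt3a has no point without control library 2, where it fell below the filter, and Wnt7b moves from -3.15 to -1.01 with the edited library that is left out.

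A wider list of pathway genes outside the members held 57 genes in the mouse table, of which 38 were tested, 4 rose and 4 fell (limma; median log2 fold change 0.16), beside 6.92% higher and 8.38% lower over all tested genes. Notum, a secreted enzyme that removes the lipid from Wnt proteins and is itself a target of the pathway in several tissues, had 4.47 and 12.6 normalized reads in the controls, 68.6 and 39.7 after editing. Both edited libraries were far above the controls, which held 4 and 10 reads. Notum reached the filter only through its edited libraries (mean 54.2, against 8.56 in control), and its fold change rests on these low control counts. Its log2 change of 2.62 ± 0.56 (SE, n = 2 per group; limma adjusted p = 0.00200) passed in all 13 alternatives that could test it, with an adjusted p up to 0.0382, and ran from 1.96 to 3.28 when single libraries were left out.

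Kremen2, a Dickkopf receptor, went the other way, from 115 and 82.2 normalized reads in control to 23.8 and 3.54 in edited samples. The groups were apart, the second edited library being the lowest, and the log2 fold change was -3.21 ± 0.55 (SE, n = 2 per group; limma adjusted p = 0.000252). DESeq2 did not call it (adjusted p = 0.0956), and with single libraries left out its change ran from -4.44 to -1.98. Ryk, a co-receptor with a tyrosine kinase-like domain, fell from 178 and 196 to 136 and 81.5 (log2 fold change -0.82 ± 0.28, n = 2 per group, limma adjusted p = 0.0442), and this call was lost in 7 of 14 alternatives, with an adjusted p up to 0.282.

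Of the listed target genes, 8 were tested, 3 rose and 2 fell, beside 15.3% of all tested genes called; the list was chosen with earlier results of these data known, and its count is a description. Myc, a growth regulator, rose from 96.1 and 96.1 to 174 and 189 normalized reads (limma adjusted p = 0.0178). Tbx3, a transcription factor of pluripotent cells, rose from 696 and 888 to 1520 and 1072 (adjusted p = 0.0133), and Esrrb, a nuclear receptor of pluripotent cells, from 144 and 187 to 373 and 232 (adjusted p = 0.0229). In Tbx3 and Esrrb the first edited library was the higher of the pair. With single libraries left out the log2 fold change of Tbx3 ran from 0.45 to 0.95 and that of Esrrb from 0.50 to 1.18. Of 14 alternatives, the call was lost in 2 for Myc (adjusted p up to 0.137), in 2 for Tbx3 (up to 0.284) and in 4 for Esrrb (up to 0.289). The losses for Myc came without control library 1 or 2, those for Tbx3 without control library 1 or edited library 1, and those for Esrrb without either control, without edited library 1 and with the length trend removed.

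Cdh1, which encodes the adhesion protein that binds beta-catenin at the membrane, fell from 682 and 710 to 436 and 457 normalized reads (limma adjusted p = 0.0205), a call lost in 3 of 14 alternatives (without either control and with equal totals; adjusted p up to 0.217). Id2, an inhibitor of helix-loop-helix factors, fell from 198 and 286 to 12.4 and 12.0, a log2 change of -4.17 ± 0.36 (SE, n = 2 per group; limma adjusted p = 4.31e-09). Ctnnb1, the beta-catenin gene, had 981 and 956 in the controls, 931 and 1094 after editing. Its groups overlapped, and the 95% interval of its log2 fold change ran from -0.30 to 0.42.

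In bovine blastocysts, no member passed in either direction (limma, 0 of 28 tested; 0 also in edgeR and in DESeq2). At an unadjusted p under 0.05 limma gave 1 member, or 3.57%, beside 5.88% of all genes. With edgeR and with DESeq2, both run without edited library 4, there were 4 of 28 members, beside 595 and 637 of all 8884 genes. Without that library limma gave 2 of 28, beside 571 of 8869 genes. The background was low as well: 1 of 8884 tested genes, 0.0113%, was called. Log2 fold changes of the members ran from -0.62 to 0.23 with a median of -0.11, against 0.01 over all genes, and 20 of 28 were negative. Without control library 6 the median was -0.09 and 12 of 26 were positive. On simulated data of this design with 200 genes changed, limma recovered 54% of 2-fold changes, so a change of that size could be missed in a given gene. With only 1 gene called in the real data, the adjustment there was stricter than in the simulation. The share recovered may thus be lower than 54%.

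PYGO1, a Pygopus gene whose product joins the beta-catenin complex to chromatin, ranged from 15.8 to 24.3 normalized reads in control (median 22.5) and from 11.04 to 15.6 in edited blastocysts (median 12.8). All 6 edited libraries lay below all 6 controls, the closest pair nearly touching. It was the 1 member of 28 (3.57%) so separated, beside 0.158% of all genes lower and 0.09% higher. Its log2 fold change was -0.62 ± 0.25 (SE, n = 6 per group), with a limma p of 0.0245 before and 0.792 after adjustment, from 8 to 40 reads per library.

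The other bovine nuclear factors overlapped between the groups. TCF7L2 ranged from 25.4 to 55.4 normalized reads in control (median 42.4) and from 19.8 to 49.2 in edited samples (median 24.5), and its log2 change of -0.50 ± 0.26 (SE, n = 6 per group) did not pass (limma adjusted p = 0.792). TCF7L1, a TCF factor that mostly represses, ranged from 20.54 to 55.3 in control (median 41.9) and from 28.5 to 38.2 in edited samples (median 34.0). All 6 tested nuclear factors had negative log2 fold changes with all libraries, with a median of -0.49. Without control library 6, 4 of 6 were negative, and PYGO2 (0.26) and TCF7L1 (0.02) were positive.

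**Figure D4:**
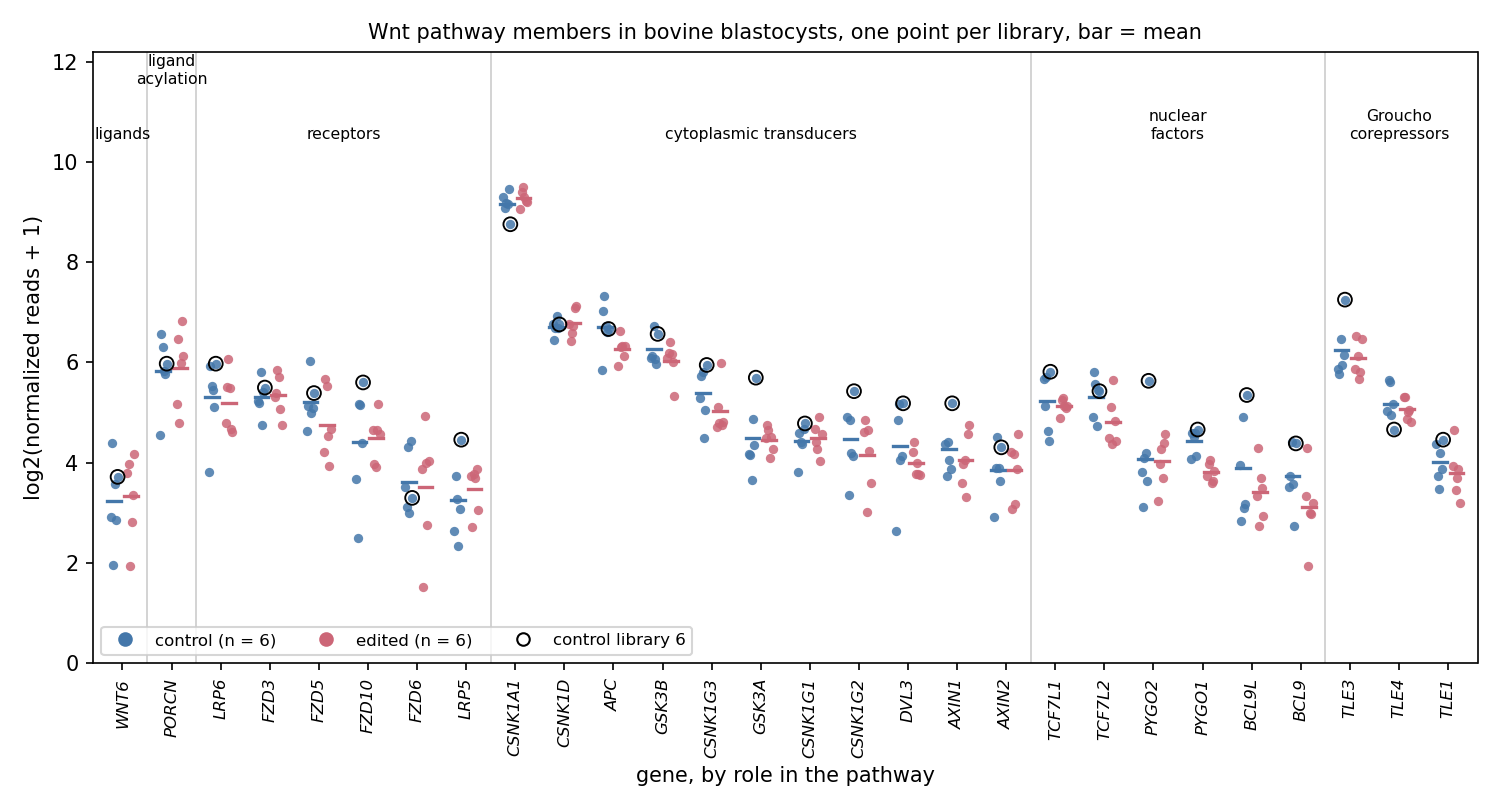
Each tested bovine member as log2(normalized reads + 1) per library, ordered by role and then by mean, with 6 control libraries in blue and 6 edited libraries in red and a bar at each group's mean; a black ring marks control library 6. The groups overlap in 27 of 28 members; PYGO1 (11.04 to 15.6 edited, 15.8 to 24.3 control) is the exception.

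Of the bovine counterparts of the called mouse members, only GSK3B and TLE4 were tested, and neither separated the groups. GSK3B had a median of 68.1 normalized reads in control (61.6 to 105) and of 69.0 in edited samples (39.1 to 83.5), and the 95% interval of its log2 fold change ran from -0.67 to 0.21. TLE4 had medians of 33.2 (24.3 to 49.2) and 31.6 (27.3 to 38.9), with an interval from -0.58 to 0.35. DKKL1 was below the filter, with medians of 7.74 (0 to 17.7) and 5.37 (0 to 11.5). By symbol, WNT3A and WNT7B were not among the bovine genes, so they could not be compared.

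Among the other bovine transducers, AXIN2 had medians of 13.9 (6.57 to 21.9) in control and 15.4 (7.41 to 22.9) in edited samples. APC, the scaffold that helps present beta-catenin for destruction, had medians of 103 (56.5 to 160) and 78.5 (59.6 to 98.2), and its log2 change of -0.43 ± 0.22 (SE, n = 6 per group) did not pass (limma adjusted p = 0.792). The casein kinase gene CSNK1A1 had medians of 576 (431 to 705) and 608 (536 to 723), and CSNK1D of 105 (86.2 to 121) and 106 (85.2 to 139). In each of these genes the edited range overlapped the control range.

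Upstream of them, PORCN had medians of 59.0 (22.3 to 93.9) in control and 65.4 (26.9 to 113) in edited blastocysts. The receptor genes LRP6 (43.98, 13.1 to 61.9, against 35.4, 23.6 to 66.5) and FZD3 (39.2, 26.003 to 55.4, against 39.8, 25.8 to 56.6) also overlapped, as did the corepressor gene TLE3 (65.1, 53.9 to 151, against 63.5, 50.2 to 90.8). WNT6, the 1 tested ligand, had medians of 8.78 (2.92 to 20.005) and 11.1 (2.83 to 16.96). Below the filter, the ligand gene WNT5A had medians of 3.29 (0 to 6.85) and 4.79 (1.30 to 6.31), and DKK3, a divergent Dickkopf gene, of 1.96 (0 to 4.37) and 1.63 (0 to 4.01). Here 3 reads correspond to 1.71 to 5.56 normalized reads, so changes in these genes were not detectable at this depth.

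Of the wider list, 53 genes were in the bovine table, 28 were tested and 0 passed (limma; 0 also in edgeR and DESeq2; FBXW11 and EP300 had an unadjusted p under 0.05). CTNNB1 had medians of 510 (321 to 773) in control and 738 (445 to 790) in edited samples, a log2 fold change of 0.37 (limma adjusted p = 0.793). WLS, the carrier that brings Wnt proteins to the cell surface, had medians of 67.1 (46.4 to 116) and 61.9 (14.8 to 110). Both genes overlapped between the groups.

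The difference between species was tested directly for the 23 members tested in both. None passed (difference of log2 fold changes, adjusted over 7073 shared genes, of which 6.07% passed). The 4 members with an unadjusted p under 0.05 are described next. The share of all shared genes at that threshold was not counted, so their number has no background here. TLE4 was lower in the mouse contrast by a log2 difference of -0.84 (adjusted p = 0.102). AXIN2 (1.42, adjusted p = 0.160), DVL3 (1.14, adjusted p = 0.146) and GSK3A (0.997, adjusted p = 0.206) lay on the positive side in mouse and near or below 0 in cattle. TLE4 passed without mouse edited library 2 (-1.01, adjusted p = 0.0290) and DVL3 without bovine control library 1 (1.48, adjusted p = 0.0264). Stage, day and species differ together here and cannot be told apart.

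**Figure D5:**
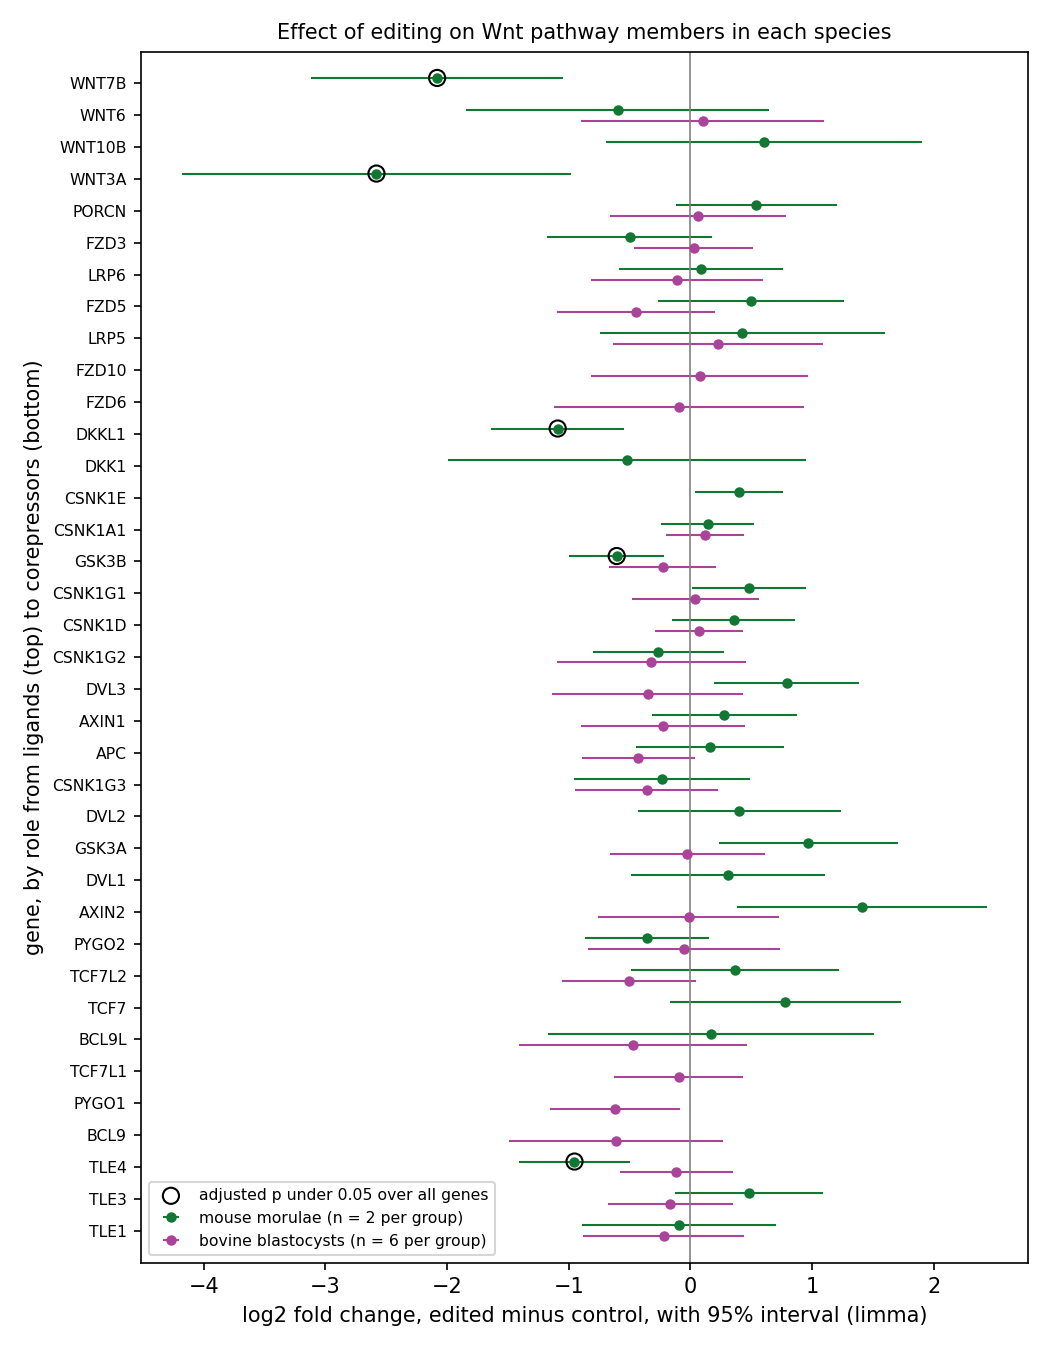
Log2 fold change (x axis, edited minus control) with its 95% interval for every member tested in either species, 1 row per gene from ligands at the top to corepressors at the bottom, mouse morulae in green and bovine blastocysts in purple; a black ring marks an adjusted p under 0.05. The 5 rings are all on mouse values below 0, and bovine values stay between -0.62 (PYGO1) and 0.23.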

How the data were processed

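Polyadenylated RNA of 4 mouse and 12 bovine samples was sequenced after a Smart-seq2 procedure, per the labels. Builds mm10 and ARS-UCD1.2 and the tools HISAT2, featureCounts, Trimmomatic and DESeq2 appear in the submitters' processing notes. The deposited signal values are reads per gene divided by a size factor per sample, from the values themselves: all came out as whole reads within 0.05. The authors' deposited tables also hold log2 fold changes, test scores and p-values, of which adjusted p-values are quoted. From the deposited normalized values, log2(value + 1) was tested per species with limma 3.58.1 (R 4.3.3, two-sided, Benjamini-Hochberg over all genes with a mean of at least 10; threshold 0.05). Species differences used the fold changes and their standard errors. edgeR 4.0.16 and DESeq2 1.42.0 were run on recovered reads, in cattle on 11 libraries, without edited library 4 (chosen after seeing the data). limma was tested on simulated data with 200 genes changed per species: 29% of 2-fold changes were recovered among 11386 mouse genes. In the real mouse data 1742 genes were called, so the adjustment differed there and 29% is not the share for the real test. Mouse coordinates and exon lengths are from the GENCODE annotation of GRCm38; counting by strand is not given in the sources used here, and Wnt7b, Axin2, Kremen2 and Notum overlap antisense genes.

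Values per sample are given for members past the threshold in either species, those with an unadjusted bovine p under 0.05, the 2 most abundant of each role, and tested members with a log2 fold change of at least 1 in size. From the wider list, the beta-catenin gene, WLS and called genes are named. Others (Dvl3, Gsk3a, Csnk1e, Csnk1g1, APC, TCF7L2, Wnt10b, Fzd5, Lrp5, Axin1, Tcf7, the bovine PYGO2, FBXW11 and EP300, and the genes below the filter in the closing section) were singled out after their values were seen. Equal totals were counted without the most abundant feature, which stayed in the test. Members and lists were chosen with earlier results of these data known.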

Additional observations from a re-analysis of the deposited data

Results flagged for a closer look

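Among the 56 bovine groups of 6 libraries examined (28 members in 2 groups), 2 held a library far from the others, where chance gives about 1 in 20. GSK3B was at 39.1 normalized reads in edited library 6, below the 63.7 to 83.5 of the other edited libraries. CSNK1G3, a casein kinase 1 gene, was at 62.2 normalized reads in edited library 4, above the 25.3 to 33.3 of the others.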

How the results depend on the processing

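The 5 mouse members called lower stayed at 5 with pseudocounts of 0.5 and 5, no filter, robust limma, edgeR, DESeq2 and the length trend removed, became 4 with equal totals and 3 with a mean of at least 50, and ran from 0 to 5 when libraries were left out. Members called higher numbered 0, but 4 with equal totals, 1 with robust limma and 1 with edgeR, and 0 to 3 with libraries left out. On the wider mouse list, 4 higher became 7 and 4 lower became 2 with equal totals, DESeq2 gave 2 lower, and left-out libraries gave 1 to 7 higher and 2 to 6 lower. Over all mouse genes, 788 higher and 954 lower became 1277 and 611 with equal totals, 333 and 247 when control library 1 was left out, 321 and 280 for control library 2, and 1074 and 1514 for edited library 2. The log2 fold change of Ctnnb1 ran from -0.0577 to 0.176 with libraries left out, negative without edited library 2, and was -0.0191 with the length trend removed. Bovine members gave 0 calls under every alternative run, and members that differed between species ran from 0 to 1 with libraries left out. Apart from fewer genes or samples entering a fit, the cause was not tested.

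Samples share only replicate numbers, and no label says that these pair them. In cattle the correlation at the same number ran from -0.193 to 0.335, and 1 of 6 edited libraries correlated best with its own number. In mouse it was 0.106 at the same number and -0.106 at the other, for both edited libraries. With 2 libraries per group these values mirror each other, so they cannot show whether the mouse samples are paired. With the replicate number as a block, 1 mouse member was higher (Axin2) and 5 were lower, and no bovine call changed.

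With 2 samples a group and 3 reads worth 2.13 to 3.79 normalized reads in mouse, changes in genes near the filter were rarely detectable.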

Other observations

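Below the filter in mouse were 17 members, with means of 2.76 to 7.93 normalized reads, among them 8 of 12 ligand genes and 5 of 9 receptor genes. Of these, 12 overlapped between the groups and 5 did not (Fzd4, Wnt4 and Fzd10 higher, Fzd6 and Dkk4 lower). Over all tested genes 29.2% lay apart lower and 28.6% apart higher, but those genes are above the filter and give no like background. Fzd4, a Frizzled receptor gene, stood at 2.23 and 5.06 in the controls, 12.4 and 12.0 after editing, and Wnt4, a ligand gene, at 3.35 and 3.79, then 11.4 and 9.21, in the same order. Fzd6 was at 7.82 and 11.4 in the controls, 2.86 and 2.13 after editing. Dkk4, a secreted inhibitor, had 4 and 6 reads in the controls, 0 and 1 after editing. Fzd10 was at 2.23 and 3.79 in the controls, 5.67 and 5.72 after editing. With no filter all 49 members were tested, and the same 5 were called.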
